A study of Caenorhabditis elegans with 9 samples.

Results

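The genes described here encode the enzymes that activate fatty acids and break them down by beta-oxidation in Caenorhabditis elegans. They were chosen by name: the numbered acyl-CoA synthetases (acs), carnitine palmitoyltransferases (cpt), acyl-CoA dehydrogenases (acdh), acyl-CoA oxidases (acox), enoyl-CoA hydratases (ech) and hacd genes, with maoc-1, dhs-28, daf-22 and kat-1. RefSeq (assembly WBcel235) lists 64 such genes, of which 61 were read by a probe set of their own, out of 17118 genes measured in all. No probe set was listed for acdh-10, and acox-1.3 and acox-1.4 are read by a probe set that they share, so these 3 genes are not counted among the 61. No filter on signal was applied, so all 61 entered every test, and 51 of them lay above the median level of all probe sets.

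Total RNA was measured on Affymetrix arrays in whole, fed larvae of the last larval stage, L4. The groups were ogt-1(ok430), which has lost the O-GlcNAc transferase that adds the sugar N-acetylglucosamine to proteins, oga-1(ok1207), which has lost the O-GlcNAcase that removes it, and the wild type. There were 3 arrays a strain, labelled as biological replicates with no word on separate cultures, so p-values measure the spread between these samples. Each array was made from a pool of 20 larvae whose RNA was amplified before labelling. Values are log2 probe set signals, so a difference of 1 is a doubling, and each strain's values are given in the order of replicates 1 to 3. A gene was called when its Benjamini-Hochberg adjusted p, from limma's moderated test over all 22548 probe sets, was under 0.05. Errors written after ± are standard errors from that fit, which pools the spread of all 9 arrays.

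Fatty acids must be joined to coenzyme A by an acyl-CoA synthetase before they can be used. In mitochondria, where carnitine palmitoyltransferases bring in long chains, each round of oxidation runs through an acyl-CoA dehydrogenase, an enoyl-CoA hydratase, a 3-hydroxyacyl-CoA dehydrogenase and a thiolase, and removes acetyl-CoA. In peroxisomes the first step is taken by acyl-CoA oxidases, and in C. elegans the peroxisomal enzymes MAOC-1, DHS-28 and DAF-22 also shorten the side chains of ascarosides, the worm's pheromones.

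In ogt-1 mutants, more beta-oxidation genes fell than rose. In the peroxisomal branch acox-1.1, acox-1.2, acox-3, daf-22 and dhs-28 (by 1 of its 2 probe sets) fell, as did the ascaroside synthetase acs-7. There acox-1.5 rose, though its call was lost when any of 5 arrays was left out, and acox-1.6 and maoc-1 were not called, at -0.27 and 0.17. Of the genes that resemble the peroxisomal bifunctional enzyme, ech-9 rose (1.91) and ech-8 fell (-0.55). Of the propionate shunt enzymes acdh-1 and ech-6 fell, though the acdh-1 call was lost under several settings. Of the shunt genes that are not of the set, alh-8 fell (-0.79), while hach-1 and hphd-1 were not called, at -0.32 and -0.22. Against the wild type, 18 of 61 genes (29.5%) fell and 4 (6.56%) rose, where 9.15% of all probe sets fell and 8.10% rose. Among the 51 genes above the median level, 16 (31.4%) fell and 4 (7.84%) rose, beside 17.0% and 14.2% of all probe sets above that level. The median difference was -0.17 over the genes and -0.023 over all probe sets, and above the median level it was -0.268 over the genes and -0.072 over the probe sets. Differences ran from -1.69 for acdh-1 to 1.91 for ech-9. In whole larvae, fewer cells of a type and less RNA per cell cannot be told apart.

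In oga-1 mutants no gene of the set passed limma's adjusted test against the wild type, where 0.191% of all probe sets rose and 0.0665% fell. At an unadjusted p under 0.05 there were 7 genes (11.5%), beside 14.7% of all probe sets. The median difference was -0.03, the extremes were -0.45 and 0.73, and the 95% interval of the difference stayed within 1.5-fold for 52 of the 61 genes.

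**Figure D1:**
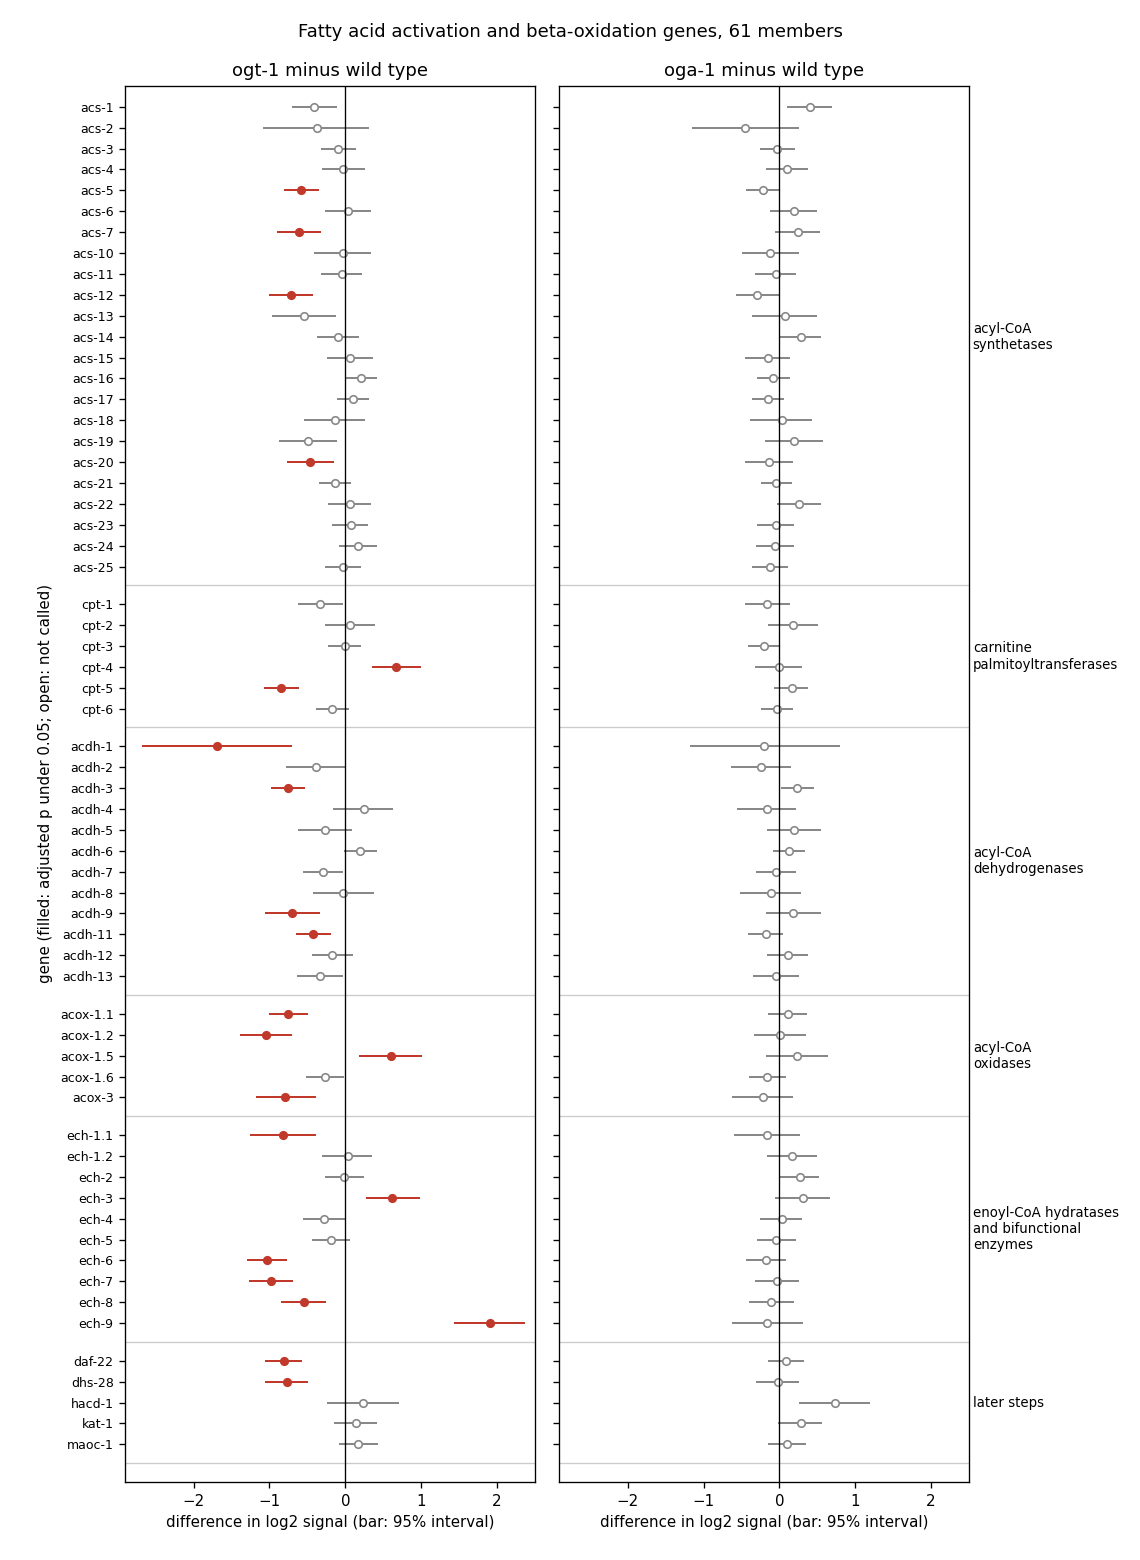
Difference in log2 signal from the wild type for each of the 61 genes, ogt-1 mutants on the left and oga-1 mutants on the right, grouped by enzyme family, with 95% intervals as bars and called genes filled. In ogt-1 mutants 22 genes are filled, 18 of them left of 0, and in oga-1 mutants none is.

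Among the acyl-CoA synthetases, which start the pathway, 4 of 23 (17.4%) fell in ogt-1 mutants and none rose, with a median difference of -0.09. Above the median level the share that fell was 22.2%, near the 17.0% of all probe sets there. The called genes were acs-5, acs-7, acs-12 and acs-20. acs-5, a long-chain synthetase homologue, read 7.63, 7.5 and 7.36 in ogt-1 mutants, 7.83, 7.78 and 7.99 in oga-1 mutants, and 8.03, 8.13 and 8.07 in the wild type. All ogt-1 arrays lay below all others, and acs-5 fell by 0.58 ± 0.10 against the wild type (1.49-fold, limma adjusted p = 0.0016). acs-7, which activates ascaroside side chains for shortening, read 4.91, 5.14 and 5.16 in ogt-1 mutants, 5.90, 5.96 and 5.89 in oga-1 mutants, and 5.99, 5.59 and 5.46 in the wild type. The ogt-1 arrays again stood apart from both other strains, and it fell by 0.61 ± 0.13 (1.53-fold, limma adjusted p = 0.0065).

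acs-12 read 5.22, 5.58 and 5.27 in ogt-1 mutants, 5.87, 5.66 and 5.81 in oga-1 mutants, and 6.26, 6.07 and 5.88 in the wild type. The ogt-1 arrays were the lowest, the wild-type arrays the highest, and no strain overlapped another. It fell by 0.71 ± 0.13 in ogt-1 mutants (1.64-fold, limma adjusted p = 0.0019). acs-20, a homologue of mammalian fatty acid transport proteins, read 5.31, 5.32 and 4.92 in ogt-1 mutants, 5.64, 5.39 and 5.47 in oga-1 mutants, and 5.74, 5.78 and 5.40 in the wild type. All ogt-1 arrays lay below the rest by a small margin. It fell by 0.46 ± 0.14 (1.37-fold, limma adjusted p = 0.037), but the call was lost without wild-type replicate 1 (-0.41, adjusted p = 0.13), wild-type replicate 2 (-0.39, adjusted p = 0.15) or ogt-1 replicate 3 (-0.33, adjusted p = 0.13). A second acs-20 probe set showed no such fall, at 0.03 (limma adjusted p = 0.91).

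The other 19 synthetases did not pass the test. acs-1, which activates a branched-chain fatty acid, read 9.17, 8.77 and 8.74 in ogt-1 mutants, 9.90, 9.67 and 9.52 in oga-1 mutants, and 9.34, 9.23 and 9.33 in the wild type. The 3 strains did not overlap, with the oga-1 arrays above and the ogt-1 arrays below the wild type. The difference from the wild type was -0.41 ± 0.13 for ogt-1 mutants (limma adjusted p = 0.053) and 0.40 for oga-1 mutants (adjusted p = 0.20). Its second probe set was called at -0.40 in ogt-1 mutants (limma adjusted p = 0.025). acs-13, a long-chain synthetase homologue, read 7.85, 7.75 and 8.32 in ogt-1 mutants, 9.06, 8.36 and 8.33 in oga-1 mutants, and 8.54, 8.43 and 8.58 in the wild type. The ogt-1 arrays lay below the rest, yet the difference from the wild type, -0.54 ± 0.19, was not called (limma adjusted p = 0.075), while the gene's second probe set was called at -0.57 (limma adjusted p = 0.0046). acs-19, an acetyl-CoA synthetase homologue, read 9.14, 9.5 and 9.33 in ogt-1 mutants, 10.21, 9.98 and 9.81 in oga-1 mutants, and 9.68, 9.54 and 10.21 in the wild type, a difference of -0.49 for ogt-1 against the wild type that was not called (limma adjusted p = 0.069).

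acs-2, a mitochondrial synthetase that fasting induces through the nuclear receptor NHR-49, varied widely between arrays of a strain. It read 6.97, 8.13 and 7.34 in ogt-1 mutants, 8.03, 7.21 and 7.0 in oga-1 mutants, and 7.61, 7.63 and 8.35 in the wild type. The strains overlapped throughout, and the ogt-1 difference from the wild type was -0.38, with a 95% interval of -1.07 to 0.30. acs-4, a long-chain synthetase homologue, read 9.21, 9.02 and 9.21 in ogt-1 mutants, 9.55, 9.22 and 9.07 in oga-1 mutants, and 9.17, 9.10 and 9.26 in the wild type. Its ogt-1 difference was -0.03, with a 95% interval of -0.29 to 0.24. acs-14 read 8.03, 8.04 and 8.36 in ogt-1 mutants, 8.56, 8.35 and 8.64 in oga-1 mutants, and 8.11, 8.21 and 8.39 in the wild type, and acs-16 read 5.34, 5.55 and 5.57 in ogt-1 mutants, 5.24, 5.18 and 5.17 in oga-1 mutants, and 5.23, 5.24 and 5.36 in the wild type. Neither was called against the wild type. The 12 synthetases not named here had ogt-1 differences of -0.14 to 0.17.

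Of the 6 carnitine palmitoyltransferase genes, cpt-5 fell and cpt-4 rose in ogt-1 mutants. Each was 20% of the 5 genes above the median level, where 17.0% of all probe sets fell and 14.2% rose. cpt-5 read 5.0, 4.99 and 4.98 in ogt-1 mutants, 5.91, 5.97 and 6.11 in oga-1 mutants, and 5.84, 5.69 and 5.99 in the wild type. Its ogt-1 arrays were nearly equal and well below the others, and it fell by 0.85 ± 0.10 (1.8-fold, limma adjusted p = 0.00014). cpt-4 read 5.90, 5.81 and 6.01 in ogt-1 mutants, 5.37, 5.10 and 5.19 in oga-1 mutants, and 5.40, 5.40 and 4.89 in the wild type. All ogt-1 arrays lay above the rest, and the rise was 0.67 ± 0.14 (1.6-fold, limma adjusted p = 0.005). The other cpt-4 probe set rose by 0.38 (limma adjusted p = 0.0087).

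The carnitine shuttle genes cpt-1 and cpt-2 were not called. cpt-1, whose enzyme makes acyl-carnitine at the outer mitochondrial membrane, read 6.13, 6.24 and 6.44 in ogt-1 mutants, 6.45, 6.37 and 6.51 in oga-1 mutants, and 6.81, 6.68 and 6.31 in the wild type. The ogt-1 and wild-type arrays overlapped, with a difference of -0.33 ± 0.13 (limma adjusted p = 0.11). cpt-2, whose enzyme releases the acyl group inside the mitochondrion, read 7.39, 7.58 and 7.80 in ogt-1 mutants, 8.0, 7.46 and 7.65 in oga-1 mutants, and 7.66, 7.39 and 7.53 in the wild type. All 3 strains overlapped, and the 95% interval of the ogt-1 difference was -0.26 to 0.38. The differences of cpt-3 and cpt-6, also not called, were -0.01 and -0.17.

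The acyl-CoA dehydrogenases catalyse the first oxidation in mitochondria. In ogt-1 mutants 4 of 12 (33.3%) fell and none rose, with a median difference of -0.32. Above the median level the share that fell was 36.4%, beside 17.0% of all probe sets there. acdh-1, which opens the propionate shunt that is used when vitamin B12 is low, read 10.42, 7.95 and 9.40 in ogt-1 mutants, 10.99, 10.45 and 10.83 in oga-1 mutants, and 11.08, 11.18 and 10.60 in the wild type. Each ogt-1 array was below every other array, but they spread far more widely (SD 1.24) than those of oga-1 mutants (SD 0.28) and the wild type (SD 0.31). acdh-1 fell by 1.69 ± 0.45 (3.24-fold, limma adjusted p = 0.021). The difference was -1.04 without ogt-1 replicate 2, and the call was lost without wild-type replicate 1 (limma adjusted p = 0.063) or wild-type replicate 2 (limma adjusted p = 0.076). The call was also lost with an intensity trend and robust variance (-1.69, adjusted p = 0.13) and without the 3 arrays of widest spread (-1.77, adjusted p = 0.093).

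acdh-3 read 9.33, 9.19 and 9.35 in ogt-1 mutants, 10.34, 10.32 and 10.21 in oga-1 mutants, and 9.94, 10.04 and 10.18 in the wild type. The ogt-1 arrays were lowest and the oga-1 arrays highest, without overlap, and acdh-3 fell by 0.76 ± 0.10 in ogt-1 mutants (1.70-fold, limma adjusted p = 0.00023). acdh-9 read 7.40, 7.5 and 7.52 in ogt-1 mutants, 8.53, 7.99 and 8.55 in oga-1 mutants, and 8.47, 8.05 and 8.01 in the wild type. Its ogt-1 arrays stood apart below the others, and it fell by 0.70 ± 0.16 (1.63-fold, limma adjusted p = 0.0092). acdh-11, whose protein sequesters medium-chain fatty acids and restrains the desaturase gene fat-7, read 6.89, 6.98 and 6.83 in ogt-1 mutants, 7.31, 7.09 and 7.02 in oga-1 mutants, and 7.28, 7.24 and 7.43 in the wild type. It fell by 0.42 ± 0.10 (1.34-fold, limma adjusted p = 0.013), but was not called without wild-type replicate 3 (-0.36, adjusted p = 0.054).

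Among the dehydrogenases that were not called against the wild type, acdh-8 read 9.79, 9.85 and 9.54 in ogt-1 mutants, 9.39, 9.66 and 9.87 in oga-1 mutants, and 9.35, 9.82 and 10.09 in the wild type. Its strains overlapped, with a 95% interval of -0.41 to 0.36 for the ogt-1 difference. acdh-5 read 5.48, 5.21 and 5.55 in ogt-1 mutants, 5.55, 6.08 and 5.99 in oga-1 mutants, and 5.47, 5.68 and 5.89 in the wild type. For acdh-2 and acdh-7 the probe sets disagreed on the call: acdh-2 was not called at -0.39 but was at -0.65 by its other probe set (limma adjusted p = 0.003), and acdh-7 was not called at -0.29 but was at -0.70 by its other probe set (limma adjusted p = 0.045). The remaining differences were -0.34 for acdh-13, -0.17 for acdh-12, 0.20 for acdh-6 and 0.24 for acdh-4.

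Acyl-CoA oxidases were the family with the lowest median difference in ogt-1 mutants, -0.75. Of 5 genes, all above the median level, 3 (60%) fell and 1 (20%) rose, beside 17.0% and 14.2% of all probe sets there. acox-1.1, an oxidase that shortens ascaroside side chains, read 5.84, 6.17 and 5.79 in ogt-1 mutants, 6.80, 6.86 and 6.70 in oga-1 mutants, and 6.58, 6.69 and 6.77 in the wild type. It fell by 0.75 ± 0.11 (1.68-fold, limma adjusted p = 0.00069), with no overlap. acox-1.2 read 4.56, 4.72 and 4.82 in ogt-1 mutants, 5.89, 5.61 and 5.75 in oga-1 mutants, and 5.52, 5.58 and 6.12 in the wild type. The ogt-1 arrays again did not overlap the others, and it fell by 1.04 ± 0.15 (2.06-fold, limma adjusted p = 0.00056).

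The genes acox-1.1, acox-1.2, acox-1.3 and acox-1.4 are neighbours on chromosome I with no protein-coding gene between them. The probe set that acox-1.3 and acox-1.4 share read 6.14, 5.68 and 5.55 in ogt-1 mutants, 7.17, 6.66 and 7.22 in oga-1 mutants, and 7.15, 7.14 and 7.27 in the wild type. It fell by 1.4 ± 0.17 in ogt-1 mutants (2.64-fold, limma adjusted p = 0.00017), so each of the 3 probe sets over this cluster was lower there. The signals of acox-1.3 and acox-1.4 cannot be told apart, and how far probe sets of such similar genes read each other was not tested.

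acox-3, another oxidase of ascaroside synthesis, read 6.54, 6.52 and 6.41 in ogt-1 mutants, 7.15, 6.66 and 7.36 in oga-1 mutants, and 7.53, 7.35 and 6.95 in the wild type. The ogt-1 arrays lay below the others, and it fell by 0.79 ± 0.18 (1.72-fold, limma adjusted p = 0.0085). acox-1.5 went the other way, with 7.68, 8.12 and 7.72 in ogt-1 mutants, 7.81, 7.48 and 7.13 in oga-1 mutants, and 7.46, 7.31 and 6.96 in the wild type. Its rise of 0.60 ± 0.18 (1.51-fold, limma adjusted p = 0.042) lost the call when any of 5 arrays was left out, with 0.46 and an adjusted p of 0.18 without ogt-1 replicate 2 as the weakest value. Those arrays were wild-type replicates 2 and 3, ogt-1 replicates 2 and 3, and oga-1 replicate 2. acox-1.6 was not called, at -0.27 (limma adjusted p = 0.13).

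The later enzymes of the peroxisomal branch did not move alike. dhs-28, the 3-hydroxyacyl-CoA dehydrogenase, read 8.15, 8.26 and 8.40 in ogt-1 mutants, 9.10, 9.13 and 8.83 in oga-1 mutants, and 8.86, 9.23 and 9.04 in the wild type. It fell by 0.77 ± 0.12 in ogt-1 mutants (1.71-fold, limma adjusted p = 0.00098), with all ogt-1 arrays below the rest, but its second probe set was not called, at -0.25 (limma adjusted p = 0.15). daf-22, the thiolase, read 6.63, 6.95 and 6.90 in ogt-1 mutants, 7.73, 7.63 and 7.80 in oga-1 mutants, and 7.72, 7.59 and 7.59 in the wild type. Its ogt-1 arrays stood below all others, and it fell by 0.81 ± 0.10 (1.75-fold, limma adjusted p = 0.00028). maoc-1, the enoyl-CoA hydratase of this branch, read 9.06, 9.41 and 9.38 in ogt-1 mutants, 9.29, 9.29 and 9.05 in oga-1 mutants, and 9.11, 9.08 and 9.13 in the wild type. Here the strains overlapped, and the 95% interval of the ogt-1 difference, -0.07 to 0.42, does not reach the falls of dhs-28 and daf-22.

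**Figure D2:**
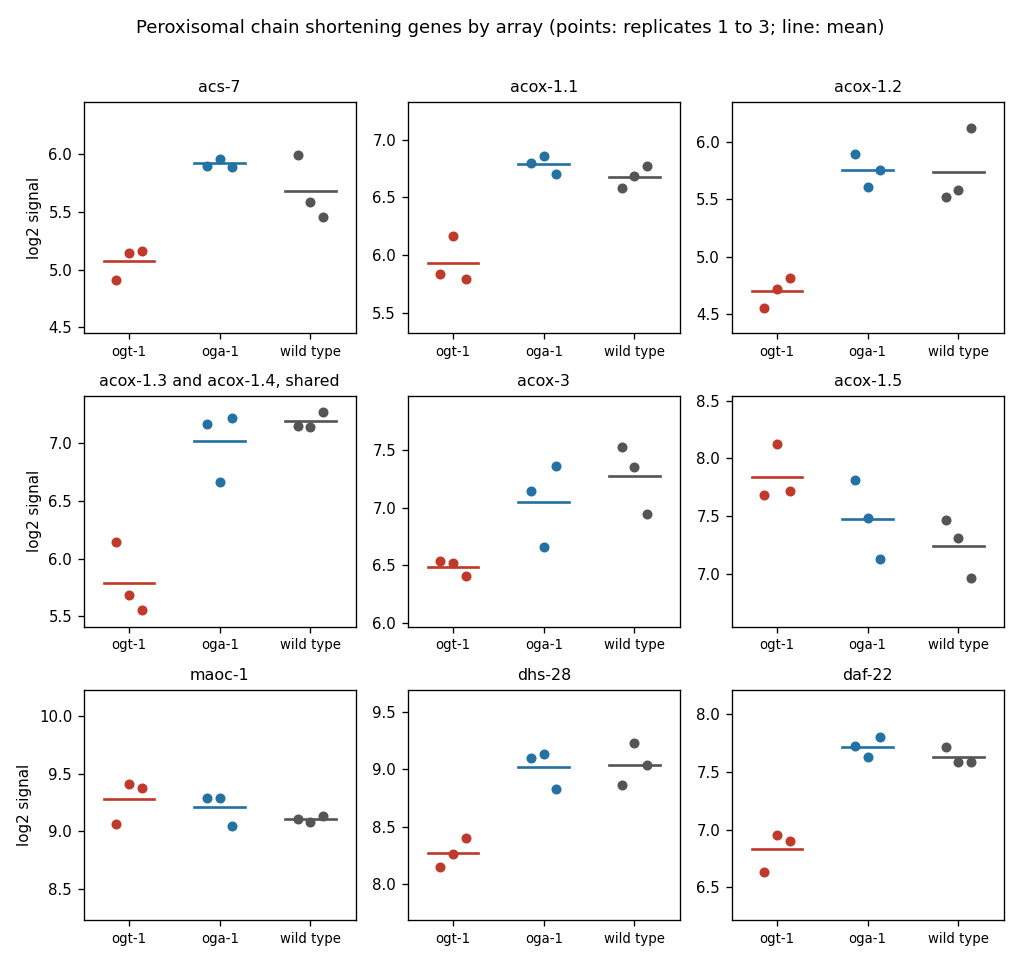
Log2 signal on each array for the ascaroside synthetase acs-7, the acyl-CoA oxidases and the later peroxisomal enzymes, with strains from left to right as ogt-1, oga-1 and wild type, replicates 1 to 3 as points and the mean as a line. The ogt-1 points lie below all others for acs-7, acox-1.1, acox-1.2, the shared probe set, acox-3, dhs-28 and daf-22, while those of acox-1.5 lie above the wild type and those of maoc-1 overlap.

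Of the 10 enoyl-CoA hydratase genes, 4 (40%) fell and 2 (20%) rose in ogt-1 mutants. Among the 7 above the median level 2 fell and 2 rose (28.6% each), beside 17.0% and 14.2% of all probe sets there. ech-6, the hydratase of the propionate shunt, read 9.11, 8.85 and 9.02 in ogt-1 mutants, 9.76, 9.68 and 10.07 in oga-1 mutants, and 10.07, 10.04 and 9.94 in the wild type. Its ogt-1 arrays were tightly grouped below the rest, and it fell by 1.03 ± 0.11 (2.04-fold, limma adjusted p = 0.00011). ech-7 read 8.95, 8.62 and 8.43 in ogt-1 mutants, 9.66, 9.74 and 9.45 in oga-1 mutants, and 9.67, 9.64 and 9.62 in the wild type. It fell by 0.98 ± 0.13 (1.97-fold, limma adjusted p = 0.0003), again without overlap.

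The neighbouring genes ech-9 and ech-8 on chromosome IV moved in opposite directions. Both resemble the peroxisomal bifunctional enzyme, which joins hydratase and dehydrogenase activities. ech-9 read 6.59, 7.17 and 7.04 in ogt-1 mutants, 5.27, 4.86 and 4.49 in oga-1 mutants, and 5.36, 4.89 and 4.83 in the wild type. All ogt-1 arrays lay more than 1 log2 unit above every other array, and the rise was 1.91 ± 0.21 (3.75-fold, limma adjusted p = 9.2e-05). ech-8 read 4.82, 4.98 and 4.88 in ogt-1 mutants, 5.22, 5.59 and 5.20 in oga-1 mutants, and 5.59, 5.54 and 5.21 in the wild type. It fell by 0.55 ± 0.13 (1.47-fold, limma adjusted p = 0.011), and its level lay below the median of all probe sets. Its adjusted p was 0.052 without wild-type replicate 1 and 0.053 without wild-type replicate 2, so the call was lost in each case.

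ech-3 rose in ogt-1 mutants, with 6.53, 7.05 and 7.03 there, 6.69, 6.25 and 6.74 in oga-1 mutants, and 6.11, 6.35 and 6.27 in the wild type. No ogt-1 array overlapped the wild type, and the rise was 0.62 ± 0.16 (1.54-fold, limma adjusted p = 0.018), but the call was lost without wild-type replicate 1 (0.56, adjusted p = 0.071), ogt-1 replicate 2 (0.54, adjusted p = 0.081) or ogt-1 replicate 3 (0.54, adjusted p = 0.069). ech-1.1, a homologue of the alpha subunit of the mitochondrial trifunctional protein, read 4.34, 4.46 and 4.44 in ogt-1 mutants, 5.38, 4.74 and 5.10 in oga-1 mutants, and 4.95, 5.05 and 5.70 in the wild type. It fell by 0.82 ± 0.19 (1.76-fold, limma adjusted p = 0.011), and its level lay below the median of all probe sets. Its other probe sets gave -0.41, which was called (limma adjusted p = 0.014), and -0.03, which was not (limma adjusted p = 0.88). ech-2 read 10.09, 9.96 and 9.94 in ogt-1 mutants, 10.46, 10.33 and 10.04 in oga-1 mutants, and 9.93, 10.06 and 10.05 in the wild type, with a 95% interval of -0.26 to 0.23 for the ogt-1 difference. Not called either were ech-4 (-0.28), ech-5 (-0.19) and ech-1.2 (0.03).

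The mitochondrial thiolase gene kat-1 read 9.58, 9.69 and 9.71 in ogt-1 mutants, 10.03, 9.60 and 9.78 in oga-1 mutants, and 9.33, 9.55 and 9.70 in the wild type. The strains overlapped, and the ogt-1 difference was 0.14, with a 95% interval of -0.14 to 0.41. A further probe set that kat-1 shares with T02G5.4 fell by 0.56 in ogt-1 mutants (limma adjusted p = 0.0057), and which gene it reads there cannot be told apart.

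**Figure D3:**
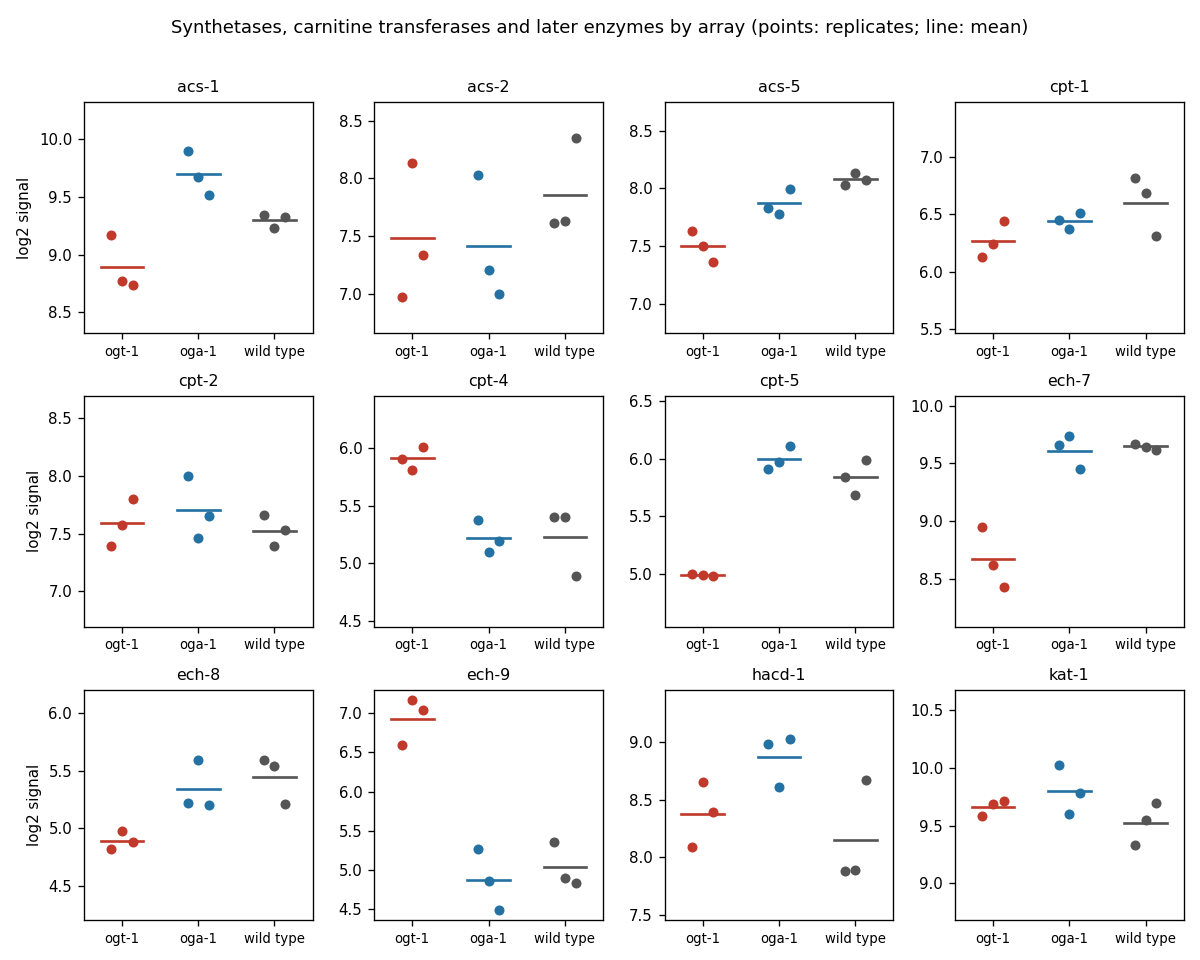
Log2 signal on each array for synthetases, carnitine palmitoyltransferases, enoyl-CoA hydratases, hacd-1 and kat-1, with strains from left to right as ogt-1, oga-1 and wild type, replicates as points and the mean as a line. The ogt-1 points of acs-5, cpt-5, ech-7 and ech-8 lie below all others, those of cpt-4 and ech-9 above all others, and those of acs-2, cpt-1, cpt-2 and kat-1 overlap the wild type.

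By the probe set used for each gene, the gene with the smallest p in oga-1 mutants was hacd-1, named after a 3-hydroxyacyl-CoA dehydrogenase. It read 8.09, 8.65 and 8.39 in ogt-1 mutants, 8.98, 8.61 and 9.03 in oga-1 mutants, and 7.88, 7.89 and 8.67 in the wild type. Wild-type replicate 3 overlapped the oga-1 arrays, and the difference between oga-1 mutants and the wild type was 0.73, with a 95% interval of 0.27 to 1.18 (limma adjusted p = 0.16). It was called without wild-type replicate 3. By the probe sets used, none of the other genes with an unadjusted p under 0.05 in oga-1 mutants was called. Their differences were 0.40 for acs-1, 0.28 for acs-14, 0.28 for kat-1, 0.27 for ech-2, 0.23 for acdh-3 and -0.29 for acs-12. The probe set that kat-1 shares with T02G5.4 went the other way in oga-1 mutants, at -0.28 (limma adjusted p = 0.31). The other probe set of acdh-2 had a smaller p in oga-1 mutants than hacd-1. It differed from the wild type by -0.56 there (limma adjusted p = 0.091, not called) and by -0.08 between the mutants.

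The mutants were also compared with each other, which tests directly whether their differences from the wild type differ. In ogt-1 mutants 21 of 61 genes (34.4%) were lower than in oga-1 mutants and 3 (4.92%) were higher, where 14.2% of all probe sets were lower and 9.63% higher. Among the 51 genes above the median level, 19 (37.3%) were lower and 3 (5.88%) higher, beside 26.3% and 15.1% of the probe sets above that level. The genes with the smallest adjusted p were acdh-3 with an ogt-1 minus oga-1 difference of -1.0 (limma adjusted p = 3e-05), cpt-5 with -1.01 (adjusted p = 3.6e-05) and ech-9 with 2.06 (adjusted p = 4.4e-05). daf-22 had a difference of -0.89, ech-7 of -0.95, acox-1.2 of -1.05 and ech-6 of -0.84, each called.

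Called between the mutants but not in ogt-1 mutants against the wild type were acs-1 (-0.81, limma adjusted p = 0.00091), acs-19 (-0.68, 0.012), acs-13 (-0.61, 0.036), acdh-5 (-0.46, 0.05 after rounding), acs-14 (-0.38, 0.04) and acs-16 (0.29, 0.04). Except for acs-1, each of these calls rested on single arrays. acs-19 lost it without oga-1 replicate 1 (-0.57, limma adjusted p = 0.053), and acs-13 without that array (-0.37), ogt-1 replicate 1 or 2, or wild-type replicate 2. acs-14 lost it without ogt-1 replicate 1 or 2, oga-1 replicate 1 or 3, or wild-type replicate 2, and acdh-5 without any ogt-1 array, oga-1 replicate 2 or 3, or wild-type replicate 2. acs-16 kept the call without ogt-1 replicate 1 or wild-type replicate 3 and lost it without any of the other 7 arrays.

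Single arrays also decided the call between the mutants for 6 genes that had been called against the wild type. acdh-1 lost it without ogt-1 replicate 2 (-0.84, limma adjusted p = 0.059) or 3, or oga-1 replicate 1 or 3. acox-3 lost it without any ogt-1 array, oga-1 replicate 1 or 3, or wild-type replicate 2, and ech-1.1 without any ogt-1 array or oga-1 replicate 1 or 3. acs-12 lost it without ogt-1 replicate 1 or 3 or oga-1 replicate 1 or 3, acs-5 without ogt-1 replicate 2 or 3 or oga-1 replicate 3, and ech-8 without ogt-1 replicate 1 or 3 or oga-1 replicate 2. Called against the wild type but not between the mutants were acox-1.5, ech-3, acdh-11 and acs-20, and the differences of these 4 genes between the mutants were 0.37, 0.31, -0.24 and -0.32. In all, 13 of the 24 calls between the mutants held when any single array was left out, and 14 genes were called after leaving out together the 3 arrays whose signals were most widely spread, ogt-1 replicate 3 and oga-1 replicates 1 and 3.

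**Figure D4:**
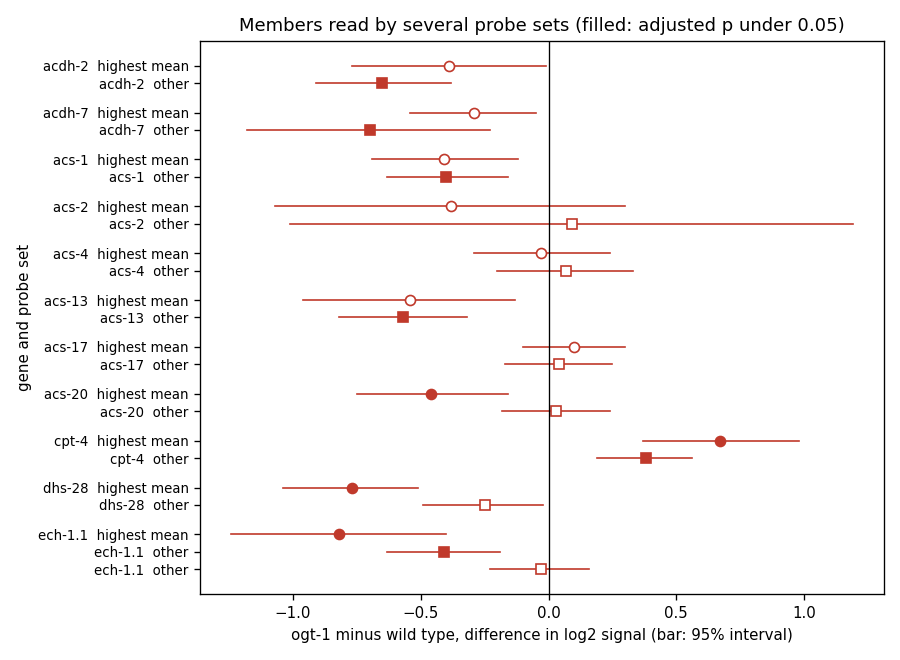
Difference in log2 signal of ogt-1 mutants from the wild type for the 11 genes read by several probe sets, with the probe set of highest mean as a circle, the others as squares, 95% intervals as bars and called differences filled. The probe sets of acdh-2, acdh-7, acs-1, acs-13, acs-20, dhs-28 and ech-1.1 differ in whether they were called, and both of cpt-4 were called higher.

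The 22 genes called in ogt-1 mutants lay on each of chromosomes I to V and X. On chromosome I 5 of 11 genes fell, on II 3 of 13, on III 3 of 9, on IV 3 of 10, on V 3 of 13 and on X 1 of 5, while 1 gene on III, 1 on IV and 2 on V rose. For 23 of the 61 genes the probe set used was of the kind that Affymetrix marks as matching several transcripts. Of these 11 were called, beside 11 of the other 38. The share of all probe sets called was not taken by chromosome or by kind of probe set, so these counts have no background and are descriptive only.

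Genes that work beside beta-oxidation were listed by function, and their counts stand beside the same shares of all probe sets: 9.15% fell and 8.10% rose in ogt-1 mutants against the wild type, or 17.0% and 14.2% above the median level. Between the mutants 14.2% were lower and 9.63% higher in ogt-1, or 26.3% and 15.1% above the median level. Of 16 genes of propionate and branched-chain amino acid breakdown, 5 fell and none rose in ogt-1 mutants. alh-8, the last enzyme of the propionate shunt, read 9.60, 9.63 and 9.77 in ogt-1 mutants, 10.45, 10.46 and 10.56 in oga-1 mutants, and 10.44, 10.34 and 10.56 in the wild type. It fell by 0.79 ± 0.09 (1.72-fold, limma adjusted p = 0.00016), without overlap. The middle steps of the shunt did not pass the test, with differences of -0.32 for hach-1 (limma adjusted p = 0.15) and -0.22 for hphd-1 (adjusted p = 0.40). In both genes ogt-1 replicate 1 lay within the range of the wild type and ogt-1 replicate 2 was lowest, as for acdh-1.

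In the vitamin B12-dependent branch, mmcm-1, the methylmalonyl-CoA mutase, fell by 0.47 ± 0.12 in ogt-1 mutants (limma adjusted p = 0.017). The propionyl-CoA carboxylase subunits pcca-1 and pccb-1 were not called, at -0.08 and -0.55. The methionine synthase gene metr-1 fell by 0.60 ± 0.15 (adjusted p = 0.016 in limma) and mtrr-1, its reductase, by 0.72 ± 0.16 (adjusted p = 0.0074). ivd-1, the isovaleryl-CoA dehydrogenase of leucine breakdown, fell by 0.39 ± 0.10 (adjusted p = 0.014). Between the mutants 9 of the 16 genes were called, all lower in ogt-1 than in oga-1 mutants: alh-8, ivd-1, metr-1 and mtrr-1, with pccb-1, mmaa-1, bcat-1, bckd-1B and dld-1, while mmcm-1 was not among them (-0.21).

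**Figure D5:**
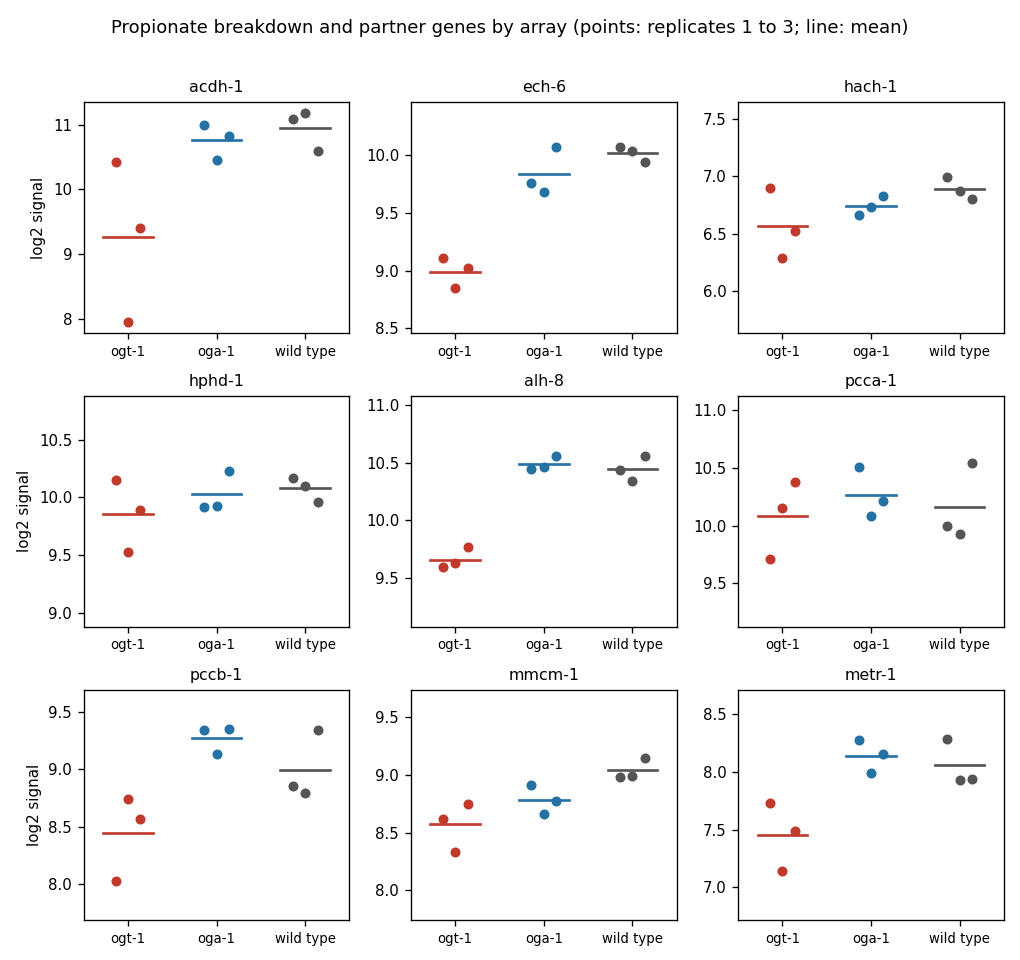
Log2 signal on each array for the propionate shunt (acdh-1, ech-6, hach-1, hphd-1, alh-8), the B12-dependent branch (pcca-1, pccb-1, mmcm-1) and metr-1, with strains from left to right as ogt-1, oga-1 and wild type, replicates 1 to 3 as points and the mean as a line. The ogt-1 points lie below all others for acdh-1, ech-6, alh-8, pccb-1 and metr-1, and spread most widely for acdh-1. Those of hach-1, hphd-1 and pcca-1 overlap the wild type, and those of mmcm-1 overlap only the oga-1 points.

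Of 17 measured genes of peroxisome assembly and peroxisomal partners, 5 fell and 1 rose in ogt-1 mutants. prx-5, the receptor that carries enzymes into peroxisomes, read 5.42, 5.82 and 5.70 in ogt-1 mutants, 6.36, 6.08 and 6.72 in oga-1 mutants, and 6.56, 6.54 and 6.29 in the wild type. It fell by 0.82 ± 0.16 (1.76-fold, limma adjusted p = 0.0035). Also lower were prx-14, a docking protein for that receptor (-0.64, adjusted p = 0.013), prx-11 (-0.37, adjusted p = 0.023) and the peroxisomal catalase gene ctl-2 (-0.59, adjusted p = 0.031). pmp-5, an ABC transporter gene, read 7.75, 5.70 and 6.22 in ogt-1 mutants, 8.28, 7.98 and 8.41 in oga-1 mutants, and 8.89, 9.0 and 8.54 in the wild type. It fell by 2.25 ± 0.38 (4.76-fold, limma adjusted p = 0.0016), with ogt-1 replicate 2 lowest, as for acdh-1. prx-2, a ring-finger protein of the import machinery, rose by 0.39 ± 0.10 (adjusted p = 0.018 in limma). Between the mutants 8 of these genes were lower in ogt-1 mutants (prx-5, prx-6, prx-10, prx-11, prx-14, prx-19, pmp-5 and ctl-2) and 2 were higher (prx-2 and nlt-1).

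Among 9 mitochondrial partners, 2 fell and none rose in ogt-1 mutants. The thiolase gene acaa-2 read 8.01, 8.01 and 8.08 in ogt-1 mutants, 9.28, 8.75 and 9.14 in oga-1 mutants, and 9.16, 8.95 and 9.23 in the wild type. It fell by 1.08 ± 0.13 (2.12-fold, limma adjusted p = 0.00019). etfa-1, a subunit of the flavoprotein that takes electrons from acyl-CoA dehydrogenases, fell by 0.79 ± 0.12 (1.73-fold, adjusted p = 0.00065), while etfb-1, its partner subunit, was at -0.10 and not called. Between the mutants acaa-2, etfa-1, hadb-1 and gbh-1 were called, all lower in ogt-1 mutants. Of 6 measured acyl-CoA binding protein genes, acbp-1 fell by 0.38 ± 0.12 (adjusted p = 0.046 in limma) and was also lower than in oga-1 mutants (-0.36).

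The listed regulators of fat catabolism mostly did not pass the test: 1 of 13 fell in ogt-1 mutants and none rose. The gene was aak-2, a catalytic subunit of the energy sensor AMPK, which fell by 0.45 ± 0.11 (1.36-fold, limma adjusted p = 0.016). In oga-1 mutants aak-2 was at -0.37 and not called (limma adjusted p = 0.17), and its difference between the mutants was -0.08 (adjusted p = 0.70). nhr-49, a nuclear receptor that activates fat oxidation genes, was at -0.21 (adjusted p = 0.20), and mdt-15, a Mediator subunit that works with it, at -0.24 (adjusted p = 0.26). Between the mutants nhr-10 (-0.50) and nhr-66 (-0.68) were lower and hlh-11 (0.50) was higher in ogt-1 mutants. In oga-1 mutants limma called none of the 61 measured genes of these 5 lists against the wild type. An unadjusted p under 0.05 was found for 14 of the 61, a larger share than the 14.7% of all probe sets. The largest difference among the 61 was -0.94, for icl-1 of the mitochondrial partners (limma adjusted p = 0.10).

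Other features of the arrays moved with the strains, and their part in the differences was not tested. The ogt-1 transcript fell in ogt-1 mutants by both its probe sets, with differences of -0.87 (limma adjusted p = 8.9e-05) and -0.42 (adjusted p = 0.007), and the 3 oga-1 probe sets differed by -0.32 to -0.25 in oga-1 mutants without being called. Marker counts in ogt-1 mutants stand beside 9.15% of all probe sets that fell and 8.10% that rose. Above the median level, where most of the markers lay, these shares were 17.0% and 14.2%. Of 10 intestine markers, the tissue where most fat is stored, 2 rose and 1 fell in ogt-1 mutants. Their mean log2 signal was 9.17 to 9.29 in ogt-1 mutants, 9.13 to 9.41 in oga-1 mutants and 9.13 to 9.26 in the wild type. The log2 of their summed signal, which the strongest markers dominate, was 14.37 to 14.60 in ogt-1 mutants, 14.66 to 14.73 in oga-1 mutants and 14.53 to 14.64 in the wild type. Of 8 germline markers 3 fell, with 12.73 to 12.98 in ogt-1 mutants, 13.38 to 13.47 in oga-1 mutants and 13.26 to 13.42 in the wild type. Of 8 sperm markers 3 rose, with 15.99 to 16.03 in ogt-1 mutants, 15.69 to 15.79 in oga-1 mutants and 15.65 to 15.83 in the wild type. Of 8 markers each, 1 muscle and 1 neuron marker rose and no hypodermis marker was called. In oga-1 mutants limma called no marker, and 6 of 50 had an unadjusted p under 0.05, a smaller share than the 14.7% of all probe sets. The actin 3' minus 5' signal, a measure of RNA length, was 3.90 to 4.14 in ogt-1 mutants, 3.90 to 4.39 in oga-1 mutants and 4.73 to 4.82 in the wild type. For Gapdh the same measure was 2.72 to 2.96 in ogt-1 mutants, 2.95 to 3.28 in oga-1 mutants and 3.13 to 3.31 in the wild type. The hybridisation controls read 9.26 to 9.5 in ogt-1 mutants, 9.04 to 9.26 in oga-1 mutants and 9.02 to 9.20 in the wild type. For each of these controls the exact permutation test of ogt-1 against the wild type gave a two-sided p = 0.1, the smallest possible with 3 arrays on each side. For oga-1 against the wild type the same permutation test gave p = 0.1 for actin, 0.2 for Gapdh and 0.6 for the hybridisation controls.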

How the data were processed

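Total RNA from 20 L4 larvae per array was amplified and hybridised to Affymetrix C. elegans arrays, per the labels. The authors deposited log2 signals for 22625 probe sets on 9 arrays, each with a mean of 5.91. MAS5, RMA and Partek appear in the submitters' processing notes with no role or version, so which tool gave these signals is not known here.

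After 77 control probe sets were left out, 22548 entered limma 3.58.1 (R 4.3.3). Strain was the single term in lmFit, contrasts.fit gave the 3 comparisons and eBayes the two-sided tests, on 6 residual degrees of freedom. Precision is limited by the 3 arrays a strain, and a difference had a median standard error of 0.13 over the 61 genes. Genes were named from the platform's annotation, updated through RefSeq (WBcel235), and 895 probe sets named none. A gene with several probe sets is represented by the probe set with the highest mean over the 9 arrays. Values in every array are given for genes called in any comparison, the 3 with the highest mean signal in each family, and kat-1, maoc-1, dhs-28, daf-22, acs-2, acdh-1, ech-6, cpt-1 and cpt-2. Called partner genes are named, and hacd-1, uncalled partners and the shared probe sets were added after their values were seen. The genes, the partner and marker lists and the tests were chosen with earlier results of these data known.

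Deviations of same-numbered arrays from their strain means correlated at -0.173 to 0.244 over 9 pairs, and 3 of 9 arrays were closest to an array of the same number, so no pairing was assumed. Alternatives were normalization, centring, level, variance and array-weight settings, other probe sets, a replicate block and leaving out each array. No coordinates or sequences are given.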

Additional observations from a re-analysis of the deposited data

How the results depend on the processing

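The number of genes of the set called in ogt-1 mutants against the wild type was 22, and it lay between 18 and 27 under the other settings, with 18 to 24 when 1 array was left out. Of these 22 genes, 13 kept their call and direction under every setting in which they were tested, and acs-20 turned to 0.03 with its lowest probe set. With the replicate block 23, 0 and 24 genes were called in the comparisons of ogt-1 with wild type, oga-1 with wild type and ogt-1 with oga-1, and the block added acs-1 and ended none of the 22 calls. In oga-1 mutants 0 or 1 gene was called when 1 array was left out, and 1 with array weights, hacd-1 in each case. Between the mutants 16 to 25 genes were called in place of 24 with 1 array left out, and 14 without the 3 arrays of widest spread, a setting chosen after the data were seen in which the spread of the single remaining oga-1 array is taken from the other strains. Over all probe sets, 58 were called in oga-1 mutants, 9 to 89 with 1 array left out, 91 after quantile normalization, 94 with an intensity trend and robust variance, 848 with array weights, 198 at an adjusted p under 0.1, 77 with the replicate block and 3 without the widest arrays. With a 1.5-fold minimum 2052 in place of 3891 were called in ogt-1 mutants and 2664 in place of 5381 between the mutants, where 2544 were called without the widest arrays. The median difference of the genes in ogt-1 mutants was -0.268 above the median level, beside -0.072 for all probe sets there. Fewer genes or arrays enter the settings that leave some out. The looser adjusted p and the 1.5-fold minimum only change the threshold applied to the same fit. Otherwise the cause of these shifts was not tested. With 3 arrays a strain and a median standard error of 0.13, differences under about 1.5-fold were often not called.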
